A study of Mus musculus with 8 samples.

Results

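The genes described here are 38 ribosome biogenesis factors of the mouse, chosen by name as nucleolar and ribosome assembly genes that are held to respond to Myc. They are 38 of the 52550 genes in the deposited count table. All 38 were matched to an Ensembl gene ID, and all 38 passed the filter on low counts that left 20749 genes for testing. mRNA was sequenced from mouse embryonic stem cells (ESCs) in 4 groups of 2 libraries, which combined 2 genotypes with 2 media. Control ESCs carried an intact Dax1 gene (Nr0b1, an orphan nuclear receptor on the X chromosome). Dax1KO ESCs were knocked out for Dax1 with CRISPR/Cas9 by a guide placed at the start of its coding sequence. The guide was carried by a lentivirus with Zeocin resistance. Per the study's methods and results the Dax1KO ESCs came from 1 colony picked in 2i/LIF. Loss of Dax1 and any other trait of this colony therefore cannot be told apart in these libraries. 2i/LIF medium was N2B27 with 1 µM PD0325901, a MEK inhibitor, 3 µM CHIR99021, a GSK3 inhibitor, and 10 ng/ml of the cytokine LIF. LIF/serum medium was DMEM with 15% FBS and 10 ng/ml LIF. All 4 groups were labelled passage 3 and grew on gelatin without feeder cells, and the Dax1KO ESCs in LIF/serum had been moved there from 2i/LIF. No label says that the 2 libraries of a group came from separate cultures, so P values measure the spread between these libraries, which may be technical.

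Ribosomes are built in the nucleolus. RNA polymerase I transcribes the precursor of the ribosomal RNAs, and small nucleolar ribonucleoproteins (snoRNPs) guide its chemical modification, the box C/D class placing methyl groups and the box H/ACA class making pseudouridine. Large sets of assembly factors then cut, fold and export the small and the large subunit. The pathway takes a large share of the energy of a growing cell, and the Myc proteins, which bind DNA with their partner Max at the E-box CACGTG, are well known activators of its genes. The 38 members fall into 4 subunits of RNA polymerase I, 3 box C/D proteins, 4 box H/ACA proteins, 4 nucleolar chaperones or regulators, 13 small subunit factors, the 3 proteins of the PeBoW complex and 7 other large subunit factors.

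To show what the promoters of the members hold, RefSeq windows of 300 bases, from 250 before to 50 after each annotated start (GRCm38.p6), were searched for CACGTG, a palindrome that reads the same on both strands. A window was at hand for 33 members, and 8 of them (24.2%) held the motif, each exactly once. Of all 32851 windows 7.15% held it, and of the 16560 windows of genes that were tested 9.35%. In 7 of the 8 members the motif lay downstream of the start, where 13.9% of the 2589 motifs in all windows lay. The 8 sites are printed with up to 12 bases on each side, 5′ to 3′ on the strand of the gene and with the motif in capitals. They are the only places in these windows where CACGTG occurs, and no other motif was searched for.
Wdr43, chr17:71616220-71616249, plus strand: cgcccgggcgaaCACGTGgctgccgcggag
Utp20, chr10:88826765-88826789, minus strand: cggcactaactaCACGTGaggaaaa
Pno1, chr11:17211540-17211564, minus strand: tgtacaaccacgCACGTGttcctct
Tsr1, chr11:74898092-74898121, plus strand: tcacttggtgcaCACGTGgactgcagaatg
Pes1, chr11:3963965-3963994, plus strand: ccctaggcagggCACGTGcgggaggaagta
Mybbp1a, chr11:72441355-72441376, plus strand: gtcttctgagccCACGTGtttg
Ltv1, chr10:13193092-13193121, minus strand: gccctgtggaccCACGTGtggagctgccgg
Nop2, chr6:125131811-125131840, plus strand: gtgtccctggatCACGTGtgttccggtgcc
Counting the start as +1, the motif began at +3 in Pes1, +18 in Wdr43, +25 in Tsr1, +29 in Ltv1, +38 in Utp20 and in Pno1 and +41 in Mybbp1a, and 60 bases upstream of the start in Nop2. A match of letters is not a binding site, and its absence from a window says nothing on whether a factor binds elsewhere.

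The libraries were of even depth, with 35911384 to 37286251 counts each. The lowest count of a member in any library was 851, of Polr1e. Dax1 itself was counted 456 and 300 times in the 2i/LIF controls and 0 times in both 2i/LIF Dax1KO libraries, and 5095 and 4689 times in the LIF/serum controls against 14 and 6 times in LIF/serum Dax1KO, as labelled. Summed levels of 7 ESC markers (Pou5f1, Sox2, Nanog, Zfp42, Esrrb, Tfcp2l1 and Klf4) were between 3600 and 4840 CPM (counts scaled to a library total of 1000000) in every library. Single markers differed, by the edgeR calls defined below. Between media 3 of the 7 were higher and 1 lower in 2i/LIF in control ESCs (20.3% and 16.5% of all genes). In Dax1KO ESCs 2 were higher and 3 lower (15.2% and 13.7%). Between genotypes 1 was higher in Dax1KO ESCs in LIF/serum (8.87%), and 0 were called in 2i/LIF. At an unadjusted P under 0.05 with 1.2-fold or more, 3 were higher and 2 lower in LIF/serum (17.4% and 13.1%). In 2i/LIF 1 was higher and 3 were lower (8.7% and 9.04%). Genes of chromosome 6, which carries Polr1a and Nop2 among the members, were higher in Dax1KO ESCs as a whole, with a median log2 fold change of 0.44 (2i/LIF) and 0.52 (LIF/serum) over 1054 genes.

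The members were expressed in every library, over a wide range of levels. Levels between genes were compared as CPM per kilobase of coding sequence, averaged over the 8 libraries. Npm1 (nucleophosmin, a nucleolar histone and ribosome chaperone, chr11:33152287-33163206, minus strand, mm10, as the coordinates below) was the highest at 4060, followed by Ncl (nucleolin, which binds the ribosomal RNA precursor, chr1:86344719-86359400, minus strand) at 1100. Nop10 and Nhp2, small core proteins of the box H/ACA particle, came next at 934 and 558. The lowest were Rrp12, a factor for export of the small subunit, at 25.8 and Polr1e, a subunit of RNA polymerase I, at 24.0, 169-fold below Npm1. Level ranks depend on the coding length taken, that of the principal transcript.

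The share of all counts that fell on the 38 members varied by group. They took 1.67% and 1.69% of all counts in the LIF/serum controls, 1.27% and 1.2% in LIF/serum Dax1KO, 1.13% and 1.06% in the 2i/LIF controls and 1.12% and 1.07% in 2i/LIF Dax1KO. Set against the mean of the LIF/serum controls, the median member was lower by about the same amount in all 4 libraries of 2i/LIF, with log2 values of -0.58 and -0.60 in control and -0.56 and -0.58 in Dax1KO ESCs. In LIF/serum Dax1KO the 2 libraries stood at -0.33 and -0.49, between the LIF/serum controls and 2i/LIF. The replicate SD of such a median, pooled over the groups, was 0.06. In a bulk library, fewer cells that express a gene and less of its RNA in each cell cannot be told apart.

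**Figure D1:**
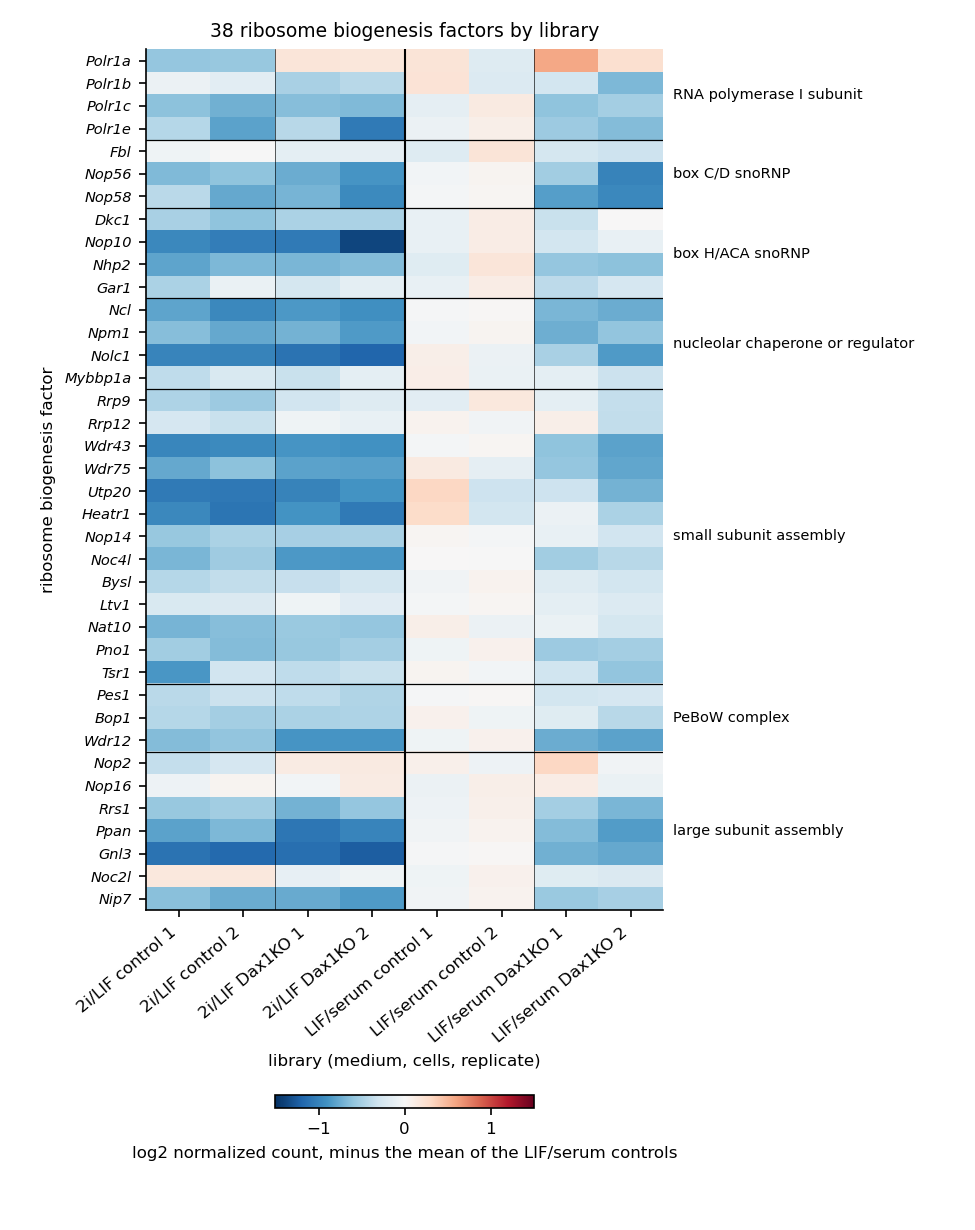
Each row is 1 of the 38 members, grouped by role, and each column is 1 of the 8 libraries; colour is the log2 normalized count minus the mean of both LIF/serum controls for that gene. The 4 libraries grown in 2i/LIF are blue for most members, with library medians from -0.60 to -0.56, and the LIF/serum Dax1KO libraries are paler, at -0.33 and -0.49.

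Dax1KO and control ESCs were first compared in 2i/LIF, the ground state medium. Genes counted as called passed 2 limits, an adjusted P no higher than 0.05 and a change of 1.2-fold or more, in the quasi-likelihood test of edgeR (Benjamini-Hochberg method, 20749 genes). A single member was called, Polr1a, the largest subunit of RNA polymerase I, and it was upregulated; 1.51% of all genes were called upregulated and 1.65% downregulated. The median log2 fold change of the members was 0.01, against -0.01 over all genes tested, and 20 of the 38 lay above 0. Apart from the chromosome 6 genes Polr1a and Nop2, the members lay between -0.33 (Polr1b) and 0.27 (Rrp9, a protein of the U3 snoRNP). At an unadjusted P under 0.05 with the same limit of 1.2-fold, 2 members were higher and 2 lower, where 8.7% and 9.04% of all genes were. Both Dax1KO libraries were above both controls for 10 members and below them for 12, where 25% and 26.8% of all genes were.

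Polr1a (chr6:71909053-71984935, plus strand) had normalized counts of 4495 and 4557 in the 2i/LIF controls and of 7635 and 7595 in 2i/LIF Dax1KO, without overlap. It rose by 68.2%, a log2 fold change of 0.75 with an SE of 0.16 (edgeR adjusted P = 0.0485). Nop2, a methyltransferase acting on the large subunit rRNA and the other member on chromosome 6, had a log2 fold change of 0.43 (SE 0.14, edgeR adjusted P = 0.148) and was not called. Over all genes of chromosome 6 the median was 0.44, and its part in these values was not tested. The log2 fold change of Polr1a lay between 0.74 and 0.78 under all 16 alternatives, while its adjusted P passed or missed the limit: the call was lost under 9 of them, among them each fit that left out 1 of the 4 libraries compared or 1 of the LIF/serum Dax1KO libraries. Of the 36 members on other chromosomes 0 were called by edgeR in 2i/LIF, with 0 higher and 2 lower at an unadjusted P under 0.05 and 1.2-fold or more. DESeq2 also called 1 member, Polr1a.

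None of the members that fell furthest in LIF/serum, described below, was called in 2i/LIF. Nop58 had 13119 and 10125 normalized counts in the 2i/LIF controls and 10641 and 8894 in Dax1KO, Wdr12 had 3249 and 3395 against 2762 and 2757, and Ppan had 4426 and 4834 against 3641 and 3881. Their log2 differences of -0.25, -0.27 and -0.30 were not called (edgeR adjusted P = 0.45, 0.228 and 0.218). Wdr12 and Ppan had both Dax1KO libraries below both controls in 2i/LIF as well, with unadjusted edgeR P values of 0.0331 and 0.0303. Their interactions were not called (edgeR adjusted P = 0.114 and 0.189). Of the members highest per length in their role, Npm1 had 119043 and 108090 against 112958 and 102166, Fbl 10027 and 10472 against 9443 and 9578, and Pes1 10751 and 11343 against 10859 and 10361. Polr1c (2176 and 2021 against 2142 and 2105), Pno1 (5656 and 5173 against 5486 and 5724) and Nip7 (5109 and 4713 against 4673 and 4388) were likewise not called.

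In LIF/serum Dax1KO ESCs were compared with control ESCs in the same way. Of the 38 members, 16 were downregulated and 0 upregulated in Dax1KO ESCs, while 5.78% of all genes tested were called downregulated and 8.87% upregulated. DESeq2 called the same 16, and at an unadjusted P under 0.05 with the limit of 1.2-fold edgeR gave 22 lower and 1 higher, where 13.1% and 17.4% of all genes were. Among the 5954 genes at least as high as the lowest member, 9.49% were called downregulated. The median log2 fold change was -0.46 over the members and 0.01 over all genes, and 35 of 38 members lay below 0. Both Dax1KO libraries were below both controls for 30 members, where 27.3% of all genes were, and the reverse held for 1 member, where 30.3% were.

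**Figure D2:**
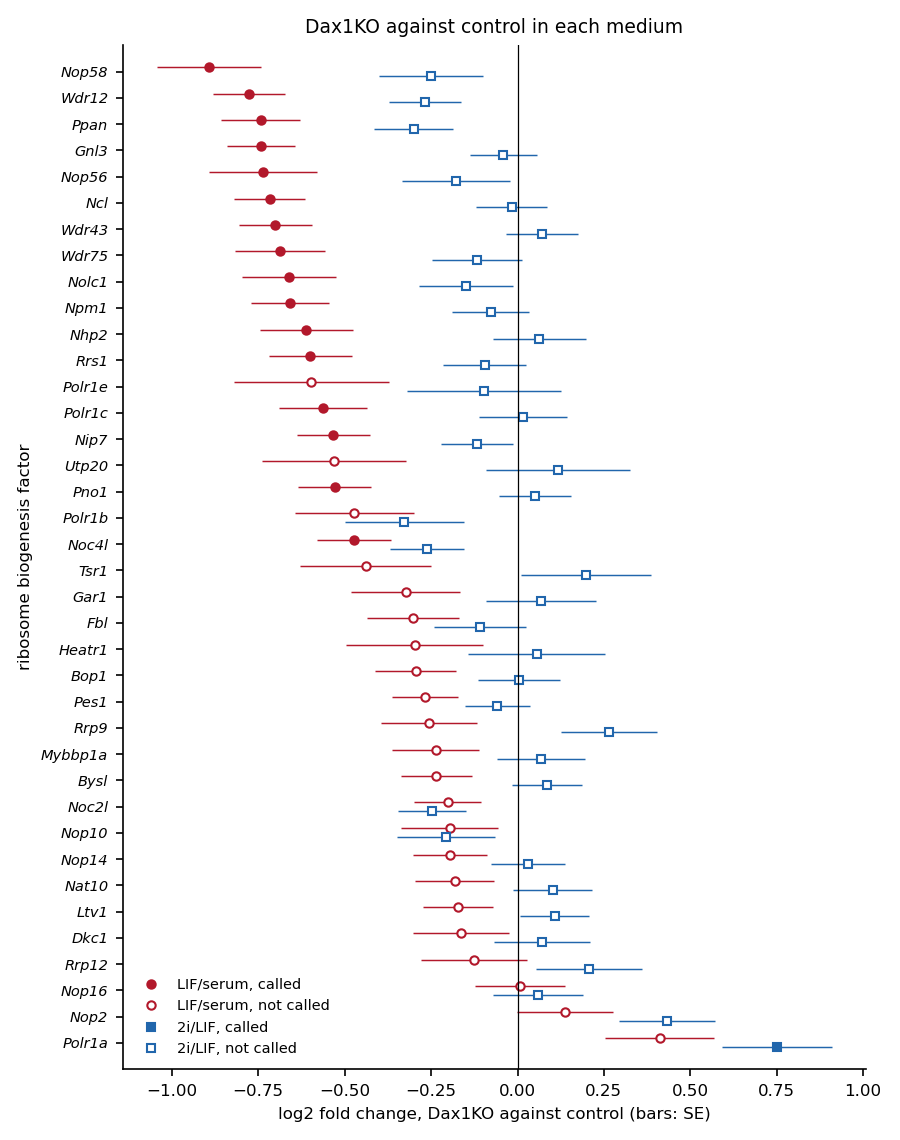
Each row is 1 member; circles give the log2 fold change of Dax1KO against control in LIF/serum and squares that in 2i/LIF, with SE as bars, and filled symbols mark called members. In LIF/serum 16 circles are filled, from -0.89 for Nop58 to -0.47 for Noc4l, and in 2i/LIF only Polr1a is filled, at 0.75.

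The largest fall among the members was in a box C/D protein. Nop58 (chr1:59684971-59719044, plus strand), a core protein that binds the snoRNA, had normalized counts of 16920 and 17689 in the LIF/serum controls and 9772 and 8866 in LIF/serum Dax1KO. It fell by 46.1% (log2 -0.89, SE 0.15, edgeR adjusted P = 0.00975), and the groups did not overlap. Its partner Nop56 had 16935 and 17803 normalized counts in the controls and 12135 and 8703 in Dax1KO (log2 -0.74, SE 0.16, edgeR adjusted P = 0.0205). The Dax1KO libraries of Nop56 lay far apart, and the call was lost under 5 of 16 alternatives: without a filter on low counts, in the separate fit of 4 libraries, and without LIF/serum Dax1KO replicate 2 or either LIF/serum control. Fbl (fibrillarin, the methyltransferase of the particle), the highest per length of the 3, had 9190 and 11961 in the controls against 8706 and 8463, and its difference of -0.30 was not called (edgeR adjusted P = 0.169). Reads of Fbl may be shared with Gm5812, whose annotated transcript matches 82.2% of it at 95% identity or more, and with an annotated transcript of Tulp4, another protein-coding gene, which matches 57.6%.

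The PeBoW complex, made of Pes1, Bop1 and Wdr12, is needed to process the precursor of the large subunit rRNA. Wdr12 (chr1:60069785-60098645, minus strand) was downregulated, from 4884 and 5325 normalized counts in the LIF/serum controls to 3035 and 2918 in Dax1KO. It fell by 41.7% (log2 -0.78, SE 0.10, edgeR adjusted P = 0.00488). Pes1, the highest per length of the complex, had 13986 and 14407 against 11681 and 11909 and a log2 difference of -0.27 (edgeR adjusted P = 0.0991). Bop1 stood at -0.30 and was not called either, so 1 of the 3 partners passed the test. All 3 had both Dax1KO libraries below both controls, where 27.3% of all genes tested did.

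Among the 7 other large subunit factors 4 were downregulated. Ppan (chr9:20888175-20892178, plus strand), the mammalian relative of yeast Ssf1, had 7461 and 8025 normalized counts in the LIF/serum controls and 4915 and 4336 in Dax1KO (log2 -0.74, SE 0.11, edgeR adjusted P = 0.00735). Gnl3 (nucleostemin, a nucleolar GTP binding protein abundant in stem cells, chr14:31012433-31019152, minus strand) had 15268 and 15765 against 9426 and 9125 (log2 -0.74, SE 0.10, edgeR adjusted P = 0.00458). Nip7 (chr8:107056877-107060931, plus strand), the highest per length of the 7, went from 7622 and 8207 to 5355 and 5580 (log2 -0.53, SE 0.10, edgeR adjusted P = 0.0159). In each of these genes the 2 libraries of a group lay close to each other and far from the other group. Rrs1, a factor that recruits the 5S ribonucleoprotein, was called at -0.60. Noc2l (-0.20), Nop16 (0.01) and Nop2 (0.14) were not called.

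Of the 4 nucleolar chaperones and regulators 3 were downregulated. Npm1 fell from 178903 and 190634 normalized counts in the LIF/serum controls to 111171 and 122896 in Dax1KO (log2 -0.66, SE 0.11, edgeR adjusted P = 0.0101). Ncl fell from 125106 and 129159 to 78952 and 75774 (log2 -0.72, SE 0.10, edgeR adjusted P = 0.00587). Nolc1 (chr19:46075863-46085530, plus strand), which ferries snoRNPs between nucleolus and Cajal body, fell from 22563 and 19838 to 15046 and 11769 (log2 -0.66, SE 0.14, edgeR adjusted P = 0.0188). Npm1 and Ncl are the most abundant members, and each lost more normalized counts than any of the other 36 held. Mybbp1a, a Myb binding protein of the nucleolus, stood at -0.24 and was not called.

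Small subunit factors split. Of 13, 4 were downregulated: Wdr43 (log2 -0.70) and Wdr75 (-0.69), which belong to the subcomplex that acts with RNA polymerase I on the nascent transcript, Pno1 (-0.53), which helps cut the 3′ end of 18S rRNA, and Noc4l (-0.47). Wdr43 (chr17:71615895-71659031, plus strand) had 15519 and 16101 normalized counts in the LIF/serum controls and 10410 and 9038 in Dax1KO (SE 0.11, edgeR adjusted P = 0.00678). Pno1 (chr11:17203198-17211568, minus strand), the highest per length of the 13, had 7806 and 8512 against 5574 and 5737 (SE 0.10, edgeR adjusted P = 0.0163). The other 9 all lay below 0, from -0.53 in Utp20 to -0.13 in Rrp12. Of these, 6 had both Dax1KO libraries below both controls, where 27.3% of all genes tested did. Utp20 varied between replicates, with 15432 and 9988 in the controls and 9985 and 7603 in Dax1KO.

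Of the box H/ACA proteins only Nhp2 was called (log2 -0.61, SE 0.13, edgeR adjusted P = 0.0229), and Nop10 (-0.20), Dkc1 (-0.16, the pseudouridine synthase) and Gar1 (-0.32) were not. Of the RNA polymerase I subunits Polr1c (chr17:46243920-46248054, minus strand), which RNA polymerase III also uses, was called: it had 3034 and 3661 normalized counts in the controls and 2191 and 2341 in Dax1KO (log2 -0.56, SE 0.13, edgeR adjusted P = 0.0253). Polr1e at -0.60 and Polr1b at -0.47 had wider errors (SE 0.22 and 0.17) and were not called. Polr1a stood at 0.41 and was not called (edgeR adjusted P = 0.122), with 7713 and 5900 normalized counts in the controls and 10105 and 7988 in Dax1KO. Thus the one subunit on chromosome 6 lay above 0 in both media and the other 3 lay below 0 in LIF/serum.

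The number of calls in LIF/serum rested on single libraries. A fit without 1 library keeps a single library in its group, so that its spread comes from the other groups. Without LIF/serum Dax1KO replicate 2, 4 of the 16 were still called (Npm1, Ncl, Wdr12 and Gnl3) and the median was -0.34. Without LIF/serum Dax1KO replicate 1, 10 were, and a fit of the 4 LIF/serum libraries alone called 8. Gnl3, Ncl and Wdr12 were called under all 16 alternatives, and Nop58, Npm1, Ppan, Wdr43 and Wdr75 under all but 1. Markers of primitive endoderm (Gata4, Gata6, Sox7, Sox17, Dab2, Pdgfra and Lamb1) moved with this comparison: 5 of 7 were upregulated, their summed level was 343 and 252 CPM in the controls and 648 and 543 CPM in Dax1KO, and none was at 0 in all libraries. Fibroblast markers summed to 12.6 and 13.2 CPM against 40.8 and 39.0 CPM, with 2 of the 5 tested genes upregulated. Most of this sum was Thy1, which had 413.5 and 408.5 normalized counts in the controls and 1288 and 1250.0 in Dax1KO, while Col3a1, Postn and Lum were at 0 in these 4 libraries. The sums of mesoderm markers were 6.60 and 3.92 CPM against 13.2 and 13.0 CPM, with 1 of 6 upregulated. Their part in the result was not tested.

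Whether the difference between Dax1KO and control ESCs changed with the medium was tested as an interaction. The difference, LIF/serum minus 2i/LIF, was called for 3 members, all more negative in LIF/serum, where 0.824% of all genes were called in that direction and 2.05% in the other. The median over the members was -0.40, against 0.02 over all genes, and 36 of 38 lay below 0. For Wdr43 the log2 fold change was 0.07 in 2i/LIF and -0.70 in LIF/serum, a difference of -0.77 (SE 0.15, edgeR adjusted P = 0.0407). In 2i/LIF it had 8010 and 8122 normalized counts in control and 8529 and 8419 in Dax1KO ESCs. For Gnl3 the difference was -0.70 (SE 0.14, edgeR adjusted P = 0.0419), with 7177 and 6902 against 7092 and 6590 in 2i/LIF. For Ncl it was also -0.70 (SE 0.14, edgeR adjusted P = 0.0476), with 73351 and 65281 against 69865 and 67171. In 2i/LIF the genotypes thus overlapped for Gnl3 and Ncl and differed by 5.1% for Wdr43. For the other members the difference between media did not pass the test. Over all 38, the 3 called ones included, 17 had an unadjusted P under 0.05, all negative, where 7.25% of all genes had one on that side. Each fit that left out 1 library lost all 3 of these calls, while the differences ranged from -0.88 to -0.67 for Wdr43, from -0.75 to -0.64 for Gnl3 and from -0.78 to -0.65 for Ncl.

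**Figure D3:**
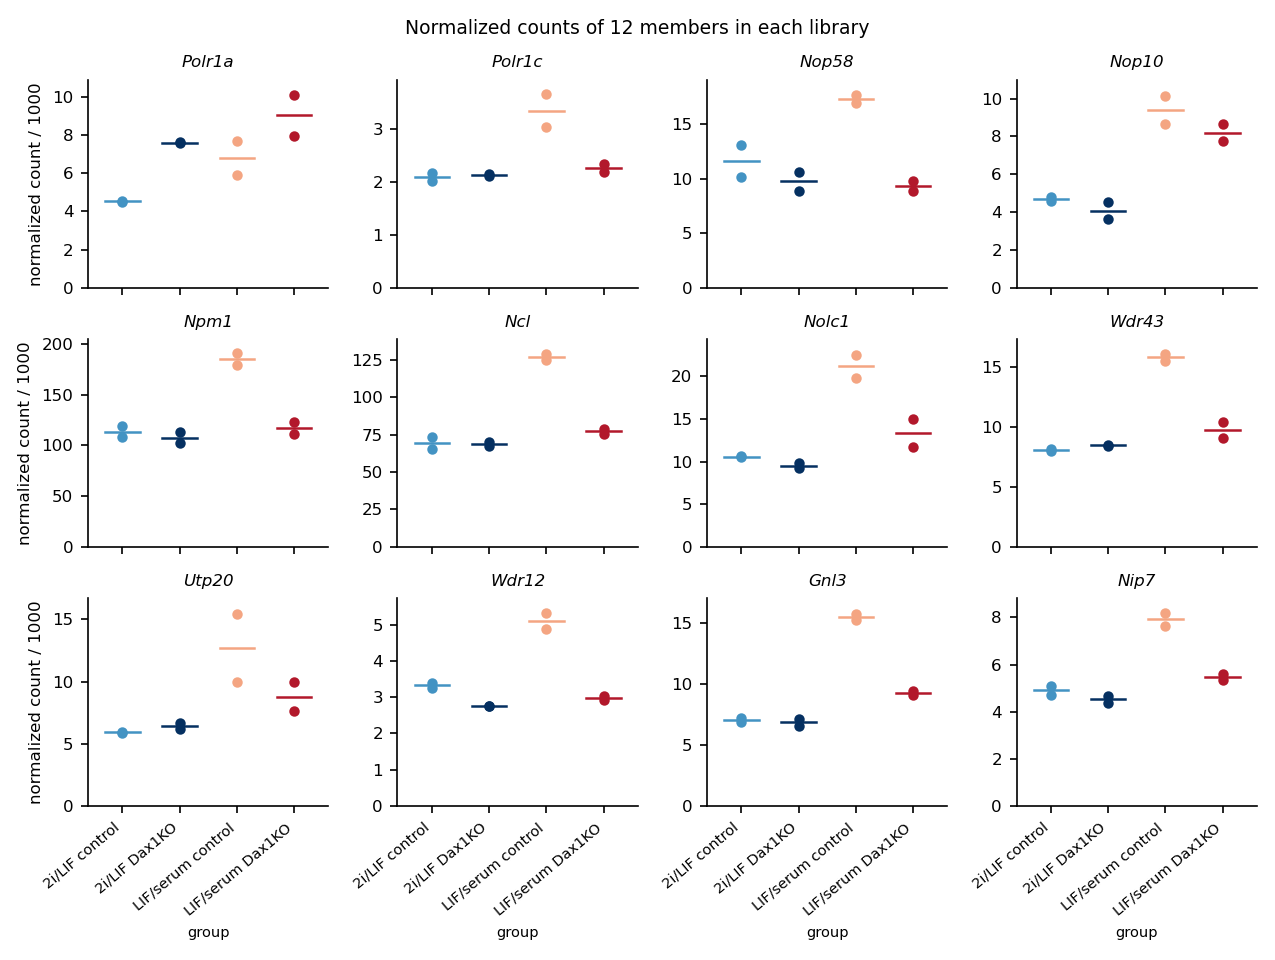
Each panel is 1 of 12 members; points are the normalized counts, divided by 1000, of the 2 libraries of each group and bars are group means, with every axis starting at 0. In Gnl3 the LIF/serum controls (15268 and 15765) lie above LIF/serum Dax1KO (9426 and 9125), which lies above both 2i/LIF groups, while in Polr1a the Dax1KO libraries lie above the controls of their medium and Nop10 is high in both LIF/serum groups.

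The media were then compared within each genotype. These comparisons use the same libraries as the ones above (the LIF/serum controls serve both here and for the Dax1KO effect in LIF/serum), so their values are set side by side and not counted as separate evidence. In control ESCs 27 of 38 members were lower in 2i/LIF than in LIF/serum and 0 were higher, where 16.5% of all genes tested were called lower and 20.3% higher. The median log2 fold change was -0.59 over the members and 0.01 over all genes, and both 2i/LIF libraries were below both LIF/serum libraries for 33 members, where 33.2% of all genes were. All 3 PeBoW proteins, 3 of 4 box H/ACA proteins, 3 of 4 chaperones and regulators, 10 of 13 small subunit factors, 4 of 7 large subunit factors, 2 of 3 box C/D proteins and 2 of 4 polymerase subunits were called. Markers of other cell types moved with the medium as well. All 7 primitive endoderm markers were lower in 2i/LIF in both genotypes, with medians of -1.47 in control and -3.03 in Dax1KO ESCs, and their summed level was 76.3 and 75.3 CPM in the 2i/LIF controls and 56.8 and 72.0 CPM in 2i/LIF Dax1KO, against 252 to 648 CPM in LIF/serum. Fibroblast markers summed to 51.0 and 64.3 CPM in the 2i/LIF controls and 36.8 and 34.5 CPM in 2i/LIF Dax1KO, with 4 of the 5 tested genes higher and 1 lower in 2i/LIF in control ESCs and 2 higher and 1 lower in Dax1KO ESCs. Of the 6 mesoderm markers edgeR called 0 between media in control ESCs (2 higher and 1 lower at an unadjusted P under 0.05 with the limit of 1.2-fold), and 2 were lower in 2i/LIF in Dax1KO ESCs. Their part in the result was not tested.

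Gnl3 showed the largest difference in control ESCs, with 7177 and 6902 normalized counts in 2i/LIF and 15268 and 15765 in LIF/serum, and fell by 54.6% from LIF/serum to 2i/LIF (log2 -1.14, SE 0.10, edgeR adjusted P = 0.000128). Utp20 (chr10:88746607-88826804, minus strand), a scaffold of the small subunit processome, had 5975 and 5882 against 15432 and 9988 (log2 -1.10, SE 0.21, edgeR adjusted P = 0.00482). Heatr1 (chr13:12395027-12440289, plus strand), a factor of the same processome, had 7000 and 6416 against 16621 and 11296 (log2 -1.06, SE 0.20, edgeR adjusted P = 0.0047). The 2 LIF/serum controls of Utp20 and Heatr1 lay far apart. Both genes are long: over the 1093 genes in the longest 10% by coding length, LIF/serum control replicate 1 was above replicate 2 by a median log2 of 0.33, and over the shortest 10% it was below by 0.24, whose part in these values was not tested. Leaving out libraries moved Utp20 between -1.41 and -0.75 and Heatr1 between -1.34 and -0.75, and both stayed called. Fbl (-0.05), Nop16 (-0.02) and Noc2l (0.16) stood nearest to or above 0.

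In Dax1KO ESCs 6 of 38 members were lower in 2i/LIF than in LIF/serum and 0 were higher, where 13.7% of all genes were called lower and 15.2% higher, a share of the members (15.8%) near that of all genes. The median was -0.11. The 6 were Nop10, Heatr1, Nolc1, Gnl3, Noc4l and Nat10, a cytidine acetyltransferase of 18S rRNA.

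Nop10 (chr2:112261926-112263269, plus strand) was lower in 2i/LIF in both genotypes. It had 4800 and 4572 normalized counts in the 2i/LIF controls, 4510 and 3614 in 2i/LIF Dax1KO, 8668 and 10140 in the LIF/serum controls and 7739 and 8682 in LIF/serum Dax1KO. The medium separated its libraries without overlap in both genotypes, with log2 fold changes of -1.005 in control (SE 0.14, edgeR adjusted P = 0.00123) and -1.02 in Dax1KO ESCs (SE 0.14, edgeR adjusted P = 0.00161). The interaction for Nop10 was 0.01 with an SE of 0.20. Nop10 was the one member whose call in Dax1KO ESCs was kept under all 16 alternatives. Heatr1 stood at -0.71 in Dax1KO ESCs (SE 0.20, edgeR adjusted P = 0.0315), with 7366 and 6576 normalized counts in 2i/LIF and 12868 and 9861 in LIF/serum. Nolc1 stood at -0.49 there (SE 0.14, edgeR adjusted P = 0.0296), with 9812 and 9261 against 15046 and 11769, and at -1.003 in control ESCs. With 1 library left out at a time the value in Dax1KO ESCs ranged from -0.66 to -0.30 for Nolc1 and from -0.88 to -0.50 for Heatr1, and both calls were lost under 6 of 16 alternatives. Leaving out 1 library at a time left between 1 and 7 members called in Dax1KO ESCs, with 1 called without either 2i/LIF Dax1KO library or without LIF/serum Dax1KO replicate 1, and 3 without 2i/LIF control replicate 1.

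**Figure D4:**
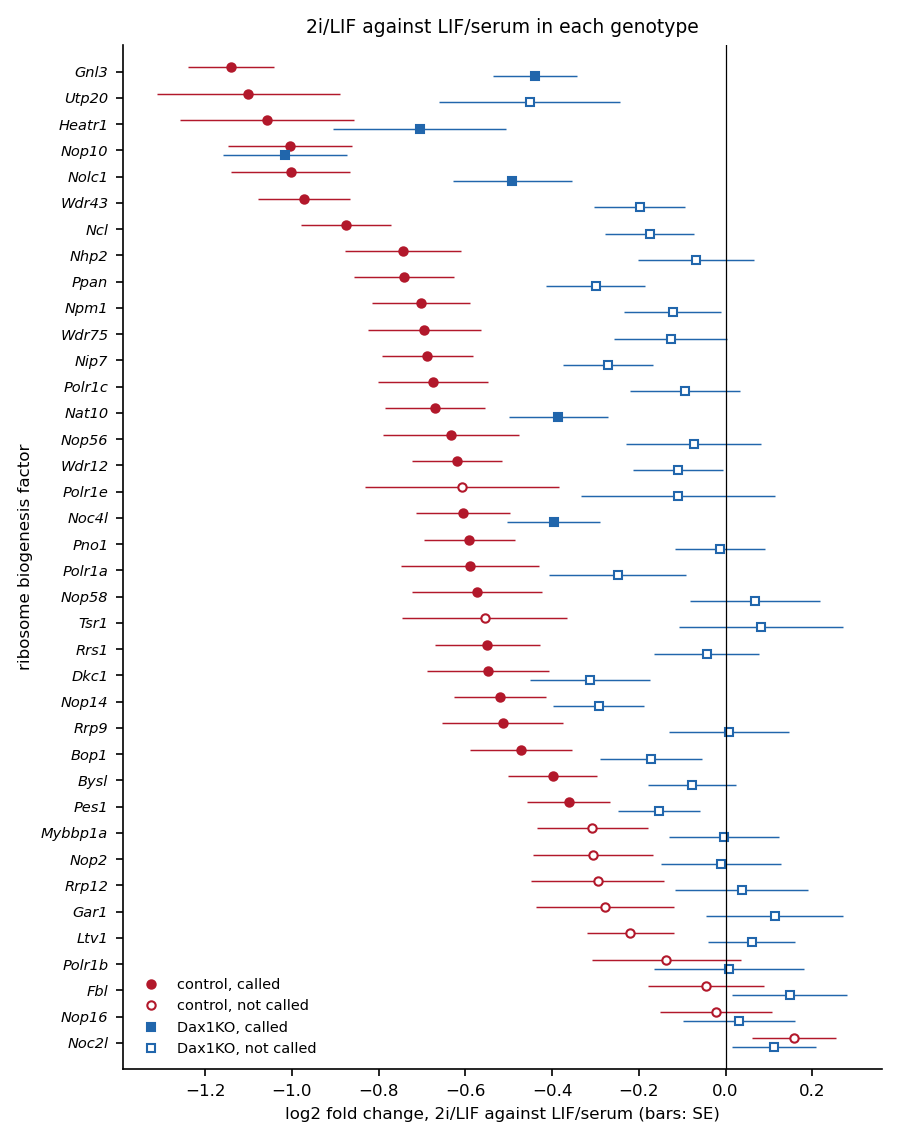
Each row is 1 member; circles give the log2 fold change of 2i/LIF against LIF/serum in control ESCs and squares that in Dax1KO ESCs, with SE as bars, and filled symbols mark called members. In control ESCs 27 circles are filled, down to -1.14 for Gnl3, while in Dax1KO ESCs 6 squares are filled, and Nop10 has the same value in both, near -1.

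The other genes of the pathway were read from lists of their own. Of 100 further ribosome assembly factors, 31 were downregulated (5.78% of all genes were) and 0 upregulated in LIF/serum Dax1KO, with a median of -0.31, and in 2i/LIF 1 was up and 2 were down, with a median of -0.02. In control ESCs 60 of the 100 were lower in 2i/LIF than in LIF/serum (16.5% of all genes were) and 0 were higher, with a median of -0.52. In Dax1KO ESCs 19 were lower (13.7% of all genes) and 2 higher (15.2%), with a median of -0.16. The largest fall among them in LIF/serum Dax1KO was in Rrp8, a methyltransferase of the large subunit rRNA, with 1648 and 1546 normalized counts in the controls and 832 and 849 in Dax1KO (log2 -0.93, SE 0.13, edgeR adjusted P = 0.00505). Of 12 further RNA polymerase I subunits and factors 2 were downregulated in LIF/serum Dax1KO, with a median of -0.33. The larger of these falls was in the subunit Polr1g, from 2502 and 2859 to 1472 and 1466 (log2 -0.87, SE 0.12, edgeR adjusted P = 0.0051). Of 11 RNA polymerase III subunits edgeR called 0 there, with 0 at an unadjusted P under 0.05 with the limit of 1.2-fold and a median of -0.10. Between media 5 of these 11 were lower in 2i/LIF in control ESCs (median -0.38) and 4 in Dax1KO ESCs (median -0.17), and 0 were called higher.

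The cytosolic ribosomal proteins are the structural parts that the members assemble. Of 82, 1 was downregulated in LIF/serum Dax1KO (Rpl36al, log2 -0.79, SE 0.18, edgeR adjusted P = 0.0241) and 0 were upregulated. Their median was -0.26 and 79 of 82 lay below 0, but both Dax1KO libraries were below both controls for 14 of 82 (27.3% of all genes tested were so). The LIF/serum controls stood apart for these genes: replicate 2 was above replicate 1 for 82 of 82, by a median log2 of 0.50. Without LIF/serum control replicate 2 the median was -0.01, with 44 of 82 below 0, and without replicate 1 it was -0.51. Leaving out LIF/serum Dax1KO replicate 1 gave -0.13, and leaving out replicate 2 gave -0.41. Between media in control ESCs 1 was called lower, and the median of -0.09 was 0.15 without LIF/serum control replicate 2, -0.34 without replicate 1, -0.03 without 2i/LIF control replicate 1 and -0.19 without 2i/LIF control replicate 2. The place of the ribosomal proteins relative to the members therefore rests on single libraries, and the difference between the lists was not tested.

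**Figure D5:**
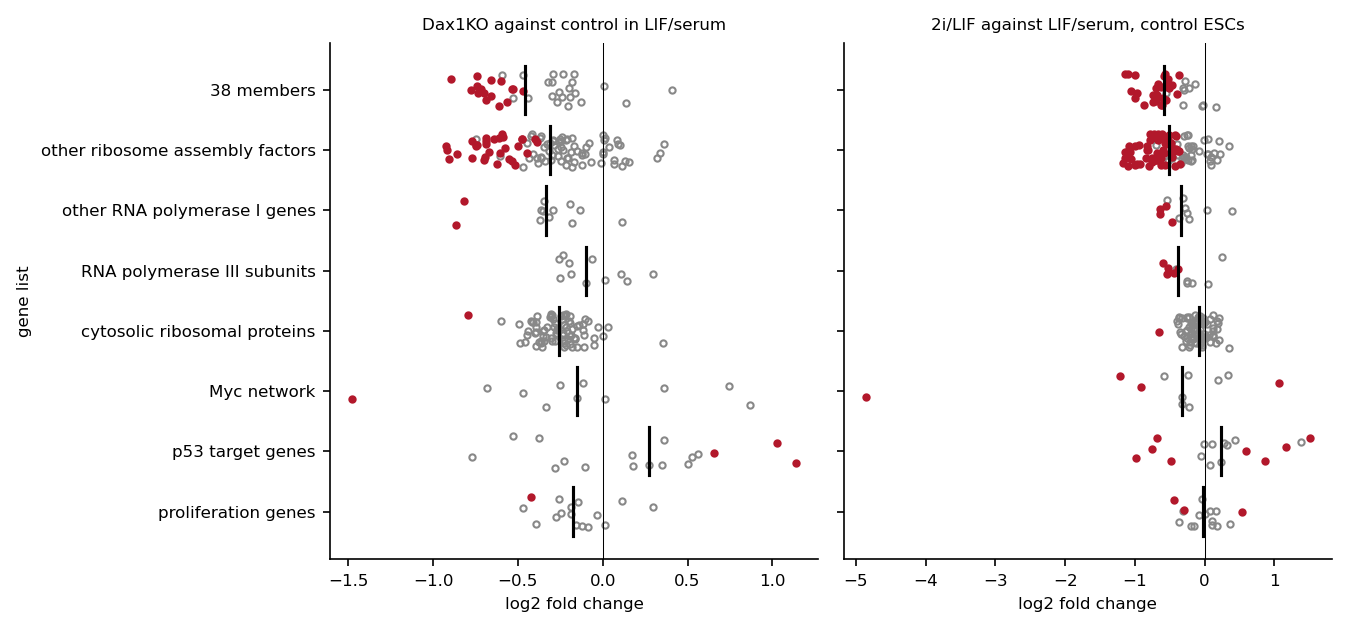
Each point is 1 gene of the named list at its log2 fold change, for Dax1KO against control in LIF/serum on the left and 2i/LIF against LIF/serum in control ESCs on the right; filled red points are called genes, black bars are list medians and the vertical scatter has no meaning. The members have a median of -0.46 on the left and -0.59 on the right and the other assembly factors one of -0.31 and -0.52, while the ribosomal proteins lie at -0.26 and -0.09, values that move with the LIF/serum control library used.

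The 3 Myc genes differed in where they were called. Mycn had normalized counts of 9044 and 8959 in the LIF/serum controls, 3331 and 3145 in LIF/serum Dax1KO, 4961 and 4579 in the 2i/LIF controls and 4167 and 4293 in 2i/LIF Dax1KO. It fell by 64.0% with the loss of Dax1 in LIF/serum (log2 -1.48, SE 0.10, edgeR adjusted P = 0.000883), and the interaction of -1.30 was called as well (edgeR adjusted P = 0.00876). Between media Mycn was lower in 2i/LIF in control ESCs (log2 -0.92, edgeR adjusted P = 0.000374) and higher in 2i/LIF in Dax1KO ESCs (log2 0.39, edgeR adjusted P = 0.0236). Myc had 1766 and 1783 in the LIF/serum controls and 1372 and 838 in LIF/serum Dax1KO, a log2 difference of -0.68 that was not called (SE 0.28, edgeR adjusted P = 0.138). In 2i/LIF Myc had 76.2 and 46.0 in control and 65.2 and 49.8 in Dax1KO ESCs, so that it was lower in 2i/LIF in both genotypes, with a log2 fold change of -4.86 in control ESCs (edgeR adjusted P = 5.2e-05). Mycl had 1349 and 1154 in the 2i/LIF controls, 746 and 776 in 2i/LIF Dax1KO, 618 and 576 in the LIF/serum controls and 639 and 568 in LIF/serum Dax1KO. It was lower in Dax1KO than in control ESCs in 2i/LIF (log2 -0.72, SE 0.15, edgeR adjusted P = 0.045). This P lay near the limit, and the call of Mycl was not checked under the alternatives. In control ESCs Mycl was higher in 2i/LIF than in LIF/serum (log2 1.07, SE 0.15, edgeR adjusted P = 0.00111). Of the 11 genes of the Myc network that were listed, Mycn was the only one called in LIF/serum Dax1KO.

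Calls were also counted by the E-box of the promoter windows. In LIF/serum Dax1KO 2 of the 8 with it were downregulated and 12 of the 25 without it (5.78% of all genes), with medians of -0.35 and -0.47. In control ESCs 4 of 8 and 20 of 25 were lower in 2i/LIF (16.5% of all genes), with medians of -0.46 and -0.62. For the interaction 1 of 8 and 2 of 25 were called, with medians of -0.44 and -0.42. The difference between members with and without the motif was not tested.

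Growth and stress genes were listed for reference. Of 17 p53 target genes 3 were upregulated in LIF/serum Dax1KO and 0 downregulated, with a median of 0.28, where 8.87% of all genes were upregulated. The largest rise was in Cdkn1a, the inhibitor of cyclin dependent kinases p21, from 2215 and 2401 normalized counts to 4766 and 5412 (log2 1.14, SE 0.15, edgeR adjusted P = 0.00446). Of 16 proliferation genes 1 (6.25%) was called there, near the 5.78% of all genes that were downregulated. It was Pcna, the clamp of DNA replication, which fell from 15360 and 14615 to 12230 and 10124 (log2 -0.42, SE 0.12, edgeR adjusted P = 0.048).

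Several members share sequence with other genes. Annotated exons of Tsr1 overlap those of Srr on the opposite strand over 32.3% of their length, those of Noc2l overlap Samd11 over 20.9% and those of Bysl overlap Ccnd3 over 9.4%, and without a stated strand setting the reads of such pairs cannot be told apart. Npm1 and Pes1 have copies elsewhere that match up to 53.6% and 60.5% of their transcripts. Copies that match at least 50% held at most 191 and 26 counts in a library. Below that limit, Gm6477 and Gm9118 each match 46.8% of Npm1 and held up to 526 and 510 counts. How reads that match a member and a copy were counted is not known. A further 23 genes for snoRNAs lie inside 8 members, all on the same strand (Nop56 holds 5, Nop58 4, and Ncl, Wdr43 and Gnl3 3 each). These mRNA libraries counted at most 75 reads on any of them. Of the 23, 11 lie in introns and the others overlap exons of their hosts. How reads in such shared exons were counted is not known.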

How the data were processed

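mRNA libraries of 8 samples were sequenced on an Illumina HiSeq platform. The authors deposited raw read counts per Ensembl gene, and the submitters' processing notes name HISAT2 2.0.4, the mm10 genome and DESeq2. In every library more genes had a count of 3 (1348 to 1587) than of 2 (823 to 940), for which the sources used here give no reason. The counting program, its annotation and its strand setting are not given in the sources used here. Of the 52550 gene IDs 52403 were found in GENCODE M21 (GRCm38, the same assembly as mm10), which gave symbols, positions and coding lengths, and 147 had no symbol.

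The counts were tested in R 4.3.3 with edgeR 4.0.16 (filterByExpr, TMM scaling with factors of 0.96 to 1.036, glmQLFit and glmQLFTest) in one fit of a mean per group over 8 libraries, with Benjamini-Hochberg adjustment over 20749 genes. Calls were made at an adjusted P no higher than 0.05 together with a change of 1.2-fold or more, or by the adjusted P alone for the interaction. Normalized counts were scaled by the TMM library sizes to their mean, and log2 levels by library used a prior count of 0.5. Differences between libraries of a group include counting error and any technical error. Where a library is left out, its group holds a single library and the spread comes from the other groups. DESeq2 1.42.0, RLE factors, other filters, separate fits, a replicate block and leaving out each library were alternatives, and members off chromosome 6 were counted apart and libraries left out for the ribosomal proteins, choices made after seeing the data. The replicate numbers of the titles were not taken as pairs.

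The 38 members and the other lists were chosen with earlier results of these data known. Values by library are printed for the member highest per coding length in each role and for the 3 with the largest rise and fall among those called in each comparison; of other genes for Dax1, Myc, Mycn and the largest called rise or fall of each list in LIF/serum (those of Nop56, Mycl and Thy1 were added after they were seen). From the marker lists sums and counts are given, and of single markers Thy1 alone. Promoter windows came from RefSeq; the E-box sites of all 8 members that hold one are printed in place of 3 whole windows. Transcripts were compared with blastn at 95% identity or more over at least 50% of the member. Shorter matches are given for Npm1 alone. Protein sequences were not used here, and 1 listed gene had no match in the table.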

Additional observations from a re-analysis of the deposited data

Results flagged for a closer look

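For 3 members the difference between Dax1KO and control ESCs changed with the medium by the interaction term of the edgeR fit (quasi-likelihood test, Benjamini-Hochberg method). The log2 value of Dax1KO against control in LIF/serum minus that in 2i/LIF was -0.77 for Wdr43 (adjusted P = 0.0407), -0.70 for Gnl3 (adjusted P = 0.0419) and -0.70 for Ncl (adjusted P = 0.0476). In 2i/LIF the 3 genes stood at 0.07, -0.04 and -0.02 and in LIF/serum at -0.70, -0.74 and -0.72. DESeq2 called 7 members on the same term, these 3 among them, and each fit with 1 library left out called none of the 3. Where the 2 libraries of a group differ, the group is too small to say which of the 2 stands apart.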

How the results depend on the processing

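Each group had 2 libraries, and every member had at least 851 counts in each library, so that depth kept no member out of the test. No fold change of a called member turned its sign under any alternative, and no scaling moved the median of all genes by more than 0.1 on the log2 scale. In LIF/serum, 16 members were called for Dax1KO against control, 8 in a separate fit of the 4 libraries, 9 when the fold change itself was tested against 1.2, and 4 to 16 with 1 library left out, where the median of -0.46 ranged from -0.50 to -0.34, the latter without LIF/serum Dax1KO replicate 2. In 2i/LIF the 1 call became 0 with RLE factors, without a filter on low counts, with the fold change tested against 1.2 and among members off chromosome 6, and 4 at an unadjusted P under 0.05 with the limit of 1.2-fold; with 1 library left out it was 0 to 1. For the interaction, 3 calls became 7 with DESeq2, 0 without a filter and with the fold change tested against 1.2, 17 at an unadjusted P under 0.05 and 0 to 1 with 1 library left out, when the median of -0.40 ranged from -0.52 to -0.35. Between media the 27 calls in control ESCs stayed at 19 to 28 with 1 library left out, and the 6 in Dax1KO ESCs became 3 without a filter, 1 with the fold change tested against 1.2 and 1 to 7 with 1 library left out. The cause was not tested, apart from the fewer libraries and the stricter rules themselves. Except for the unadjusted P, calls over all genes under these alternatives are not given here. A change in calls shared with all genes thus cannot be told apart from one of the members. Replicate numbers share no stated origin: deviations of same-numbered libraries correlated at 0.13 in 2i/LIF, 0.17 in LIF/serum, 0.08 in control ESCs and -0.01 in Dax1KO ESCs over 2 pairs each, and with the replicate block 1 member was called in 2i/LIF, 16 in LIF/serum, 3 for the interaction, 28 between media in control and 6 in Dax1KO ESCs. Of the cytosolic ribosomal proteins the median between media in control ESCs turned from -0.09 to 0.15 without LIF/serum control replicate 2.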
